A study of Mus musculus with 11 samples.

Results

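The 9 complement genes described here are C4b, C3, C1qa, C1qb, C1qc, Cfb, Serping1, C3ar1 and C5ar1, chosen by symbol from the 25827 genes of a mouse series of single-nucleus RNA sequencing (snRNA-seq) that pooled cervical spinal cord with brainstem and cerebellum, and all 9 were present. They cover the classical and alternative pathways of complement, a regulator and a pair of receptors. Their unique molecular identifiers (UMIs) were summed per sample and class of nuclei in each of 11 samples. The study asked what changes in experimental autoimmune encephalomyelitis (EAE), in which immunization against myelin models multiple sclerosis, when cells of the neural lineage lack Il12rb2, a chain of the interleukin-12 receptor. All mice were males of 8 to 12 weeks and all carried Il12rb2fl/fl, that is, an Il12rb2 gene flanked by loxP sites. The fl EAE group (n = 4) and the NestinCre EAE group (n = 4) were immunized with a myelin oligodendrocyte glycoprotein peptide in complete Freund's adjuvant, received pertussis toxin and were studied at day 10. NestinCre mice (NestinCre/+Il12rb2fl/fl littermates) carried in addition a Cre recombinase driven by Nestin regulatory sequence. Neural precursors, from which neurons, oligodendrocytes and astrocytes arise, use it, and microglia, which descend from another lineage, are not its targets. The fl naive group (n = 2 libraries) and the NestinCre naive group (n = 1) were not immunized.

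Complement is a cascade of plasma proteins that marks targets for uptake or lysis. In the classical pathway C1q, built from the chains C1qa, C1qb and C1qc, binds a surface, and the proteases it carries then cut C4 and C2. The products form an enzyme that cuts C3, the protein on which all pathways converge, and factor B (Cfb) forms the corresponding enzyme of the alternative pathway. Serping1, the C1 inhibitor, blocks the first proteases, and C3ar1 and C5ar1 are the receptors of the small fragments C3a and C5a. In the brain, microglia are known as the main makers of C1q, and C4b is known to be induced in reactive glia.

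The deposited matrices held 189709 barcodes and between 40761007 and 86063464 UMIs per library. After quality limits and removal of doublets 171344 nuclei were kept, 12226 to 20465 per sample, with a median of 2389 UMIs. They formed 106 clusters, of which 57 were named from marker genes into 19 classes. Each class is X-like by its markers and is called by the plain name from here on, and 10.85% of nuclei stayed unnamed. Mature oligodendrocytes held Mog at 1127 UMIs per 1000000 UMIs of the class (CPM) against 115.5 over all kept nuclei, and microglia held Cx3cr1 at 788.9 against 22.84. The libraries shared between 47 and 140 barcodes over 55 pairs. Nes separated the genotypes in the whole libraries, at 0.798 to 1.28 CPM in the 5 NestinCre samples and 0.0184 to 0.137 in the 6 fl samples. Il12rb2 did not (8.24 to 17.2 against 11.7 to 17.1 CPM), and the reason was not tested. The samples came from 3 sequencing runs: replicates 1 to 3 of both EAE groups were in run 1, replicate 4 of both and fl naive 2 in run 2, and fl naive 3 and NestinCre naive 2 in run 3. fl EAE 3 stood apart from the other fl EAE libraries, with C4b at 7.7 CPM in the whole library against 1.88 to 2.6. Infiltrating phagocytes made up 0.549% to 1.16% of nuclei in NestinCre EAE 1 to 3, 0.181% in NestinCre EAE 4 and 0.0316% to 0.158% in fl EAE.

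On GRCm39 (GENCODE vM39) C1qa (chr4:136623223-136626161), C1qc (chr4:136616466-136620376) and C1qb (chr4:136606009-136613511) are neighbours on the minus strand, and C4b (chr17:34947354-34962912), Cfb (chr17:35074852-35081559) and C3 (chr17:57510964-57535155) lie on chromosome 17. Serping1 (chr2:84595705-84620873), C3ar1 (chr6:122823393-122833122) and C5ar1 (chr7:15980668-15993465) lie elsewhere. UMIs were counted over exons and introns. C4a, the near-identical copy of C4b, was not analysed here, and reads that match both copies leave the C4b values uncertain to that extent. Promoters of 5 of the 9 genes were found in the RefSeq table. The 250 bases upstream of the start are shown for C1qb and C1qc, neighbours that share their highest classes, and for C3, which is highest in another class, as they stand on GRCm38.p6 at chr4:136886201-136886450, chr4:136892915-136893164 and chr17:57228137-57228386, each 5′ to 3′ on the minus strand.
C1qb: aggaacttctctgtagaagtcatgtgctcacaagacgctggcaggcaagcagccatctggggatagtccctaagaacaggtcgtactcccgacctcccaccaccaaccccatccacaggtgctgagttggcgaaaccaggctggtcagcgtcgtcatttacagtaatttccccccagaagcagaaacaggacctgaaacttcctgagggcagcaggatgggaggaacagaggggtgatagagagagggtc
C1qc: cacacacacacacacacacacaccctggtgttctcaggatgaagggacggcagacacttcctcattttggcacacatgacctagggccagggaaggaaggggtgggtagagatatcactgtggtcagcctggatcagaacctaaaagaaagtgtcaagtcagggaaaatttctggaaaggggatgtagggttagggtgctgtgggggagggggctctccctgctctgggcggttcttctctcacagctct
C3: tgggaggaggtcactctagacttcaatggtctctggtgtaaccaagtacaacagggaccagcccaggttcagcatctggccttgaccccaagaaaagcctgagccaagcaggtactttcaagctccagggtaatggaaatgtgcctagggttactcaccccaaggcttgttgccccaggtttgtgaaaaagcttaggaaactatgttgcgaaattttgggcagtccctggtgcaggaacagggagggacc
These windows and those of C3ar1 and C5ar1 were searched on both strands for a STAT motif (TTCNNNGAA), the core of the interferon-stimulated response element and an NF-kappaB motif. Such letters were found in 7.02%, 2.98% and 1.21% of 32851 upstream windows of the same length, and in none of the 5, so no base is capitalized. This says only that these letters are not in these windows.

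The members fell into different classes of nuclei. C1qa, C1qb and C1qc were highest in microglia and border-associated macrophages, at 267, 360 and 321 CPM in microglia and at 289, 370 and 282 CPM in border-associated macrophages, summed over the 11 samples. C3 and Cfb were highest in infiltrating phagocytes (123 and 33.9 CPM). C3 was at 80.7 CPM in neutrophils and at 4.31 CPM in microglia. Serping1 was highest in leptomeningeal cells or fibroblasts (150.0 CPM) and unipolar brush cells (71.4 CPM), an excitatory interneuron of the cerebellum. The receptor C3ar1 was highest in border-associated macrophages (110 CPM), and C5ar1 in neutrophils (106 CPM). C4b was spread over glial and myeloid classes, with 135 CPM in border-associated macrophages, 106 in mature oligodendrocytes, 78.3 in infiltrating phagocytes, 74.3 in astrocytes, 73.7 in microglia, 73.3 in neutrophils, 58.4 in oligodendrocyte progenitor cells and 57.1 in Bergmann glia. This order pools groups with unlike C4b levels, and by the mean of the NestinCre EAE samples mature oligodendrocytes (251.9 CPM) came first and Bergmann glia (231 CPM) next. These levels are a description with no test, since markers from the same nuclei defined the classes, and the small classes rest on few UMIs (29 for Cfb in infiltrating phagocytes).

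**Figure D1:**
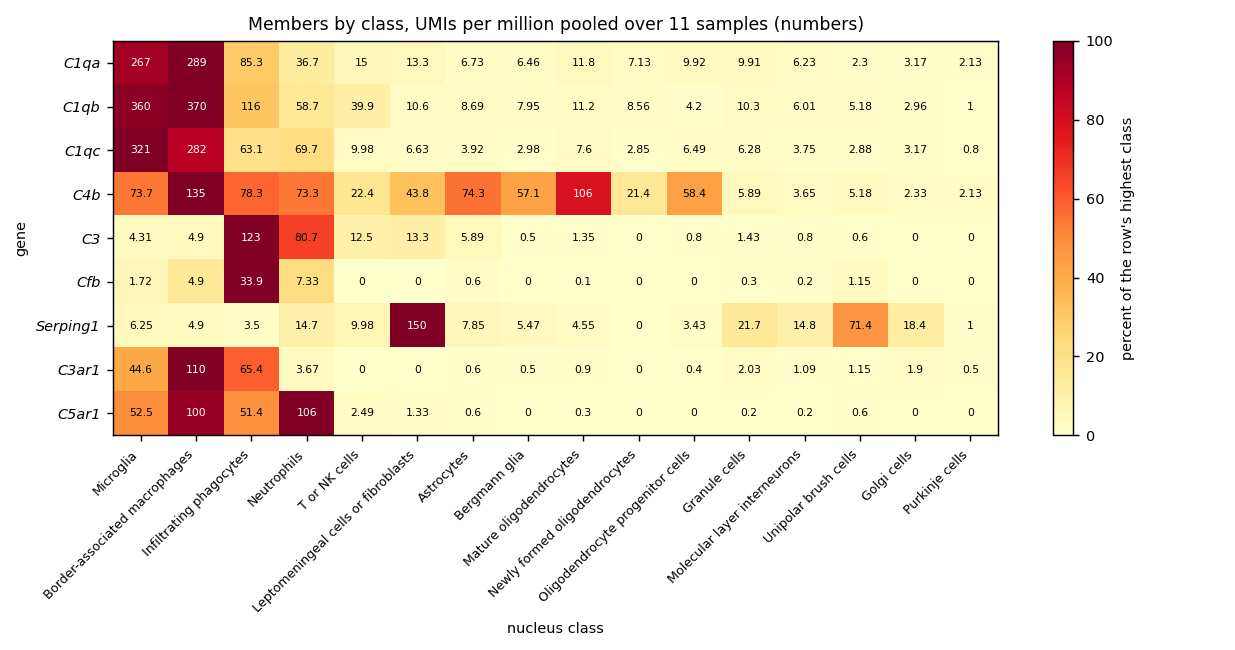
Heat map of the 9 genes (rows) in 16 classes of nuclei (columns). Numbers give CPM summed over 11 samples, and the colour gives the value as a percent of the highest class in the row. The C1q rows peak in microglia and border-associated macrophages, C3 and Cfb in infiltrating phagocytes, and C4b is spread over glial and myeloid classes with its highest value pooled over the 11 samples in border-associated macrophages.

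Abundant classes held most of the UMIs of several members even where the level per nucleus was low. Mature oligodendrocytes held 60.74% of the C4b UMIs of NestinCre EAE and 49.4% of those of fl EAE. Granule cells, the small and numerous neurons of the cerebellum, held 20.27% and 18.63%. Of the C1qa UMIs, granule cells held 50.72% in NestinCre EAE and 47.76% in fl EAE, and microglia 19.33% and 24.22%. Granule cells held 76.38% of the Serping1 UMIs in NestinCre EAE. In whole libraries more nuclei of a class and more RNA per nucleus cannot be told apart, so the comparisons were made within classes.

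**Figure D2:**
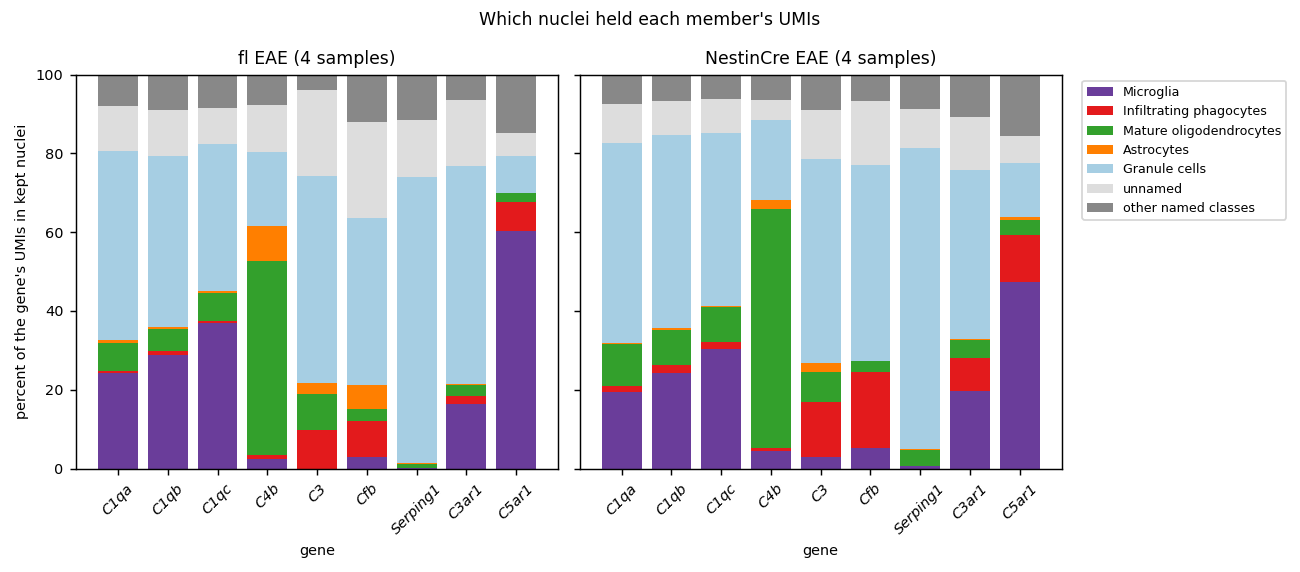
Stacked bars of the percent of each gene's UMIs (vertical axis, 0 to 100) that lay in each class of kept nuclei, summed over 4 fl EAE samples (left) and 4 NestinCre EAE samples (right). C4b is the gene with most UMIs in mature oligodendrocytes in both groups (49.4% and 60.74%), and granule cells hold the largest part of C1qa, C3 and Serping1 UMIs in both.

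C4b, the C4 gene expressed in glia, was higher in NestinCre EAE than in fl EAE in all 6 classes in which it passed the filter on low counts. The increase was 10.1-fold in mature oligodendrocytes, 10.0-fold in oligodendrocyte progenitor cells, 6.91-fold in microglia and 4.51-fold in astrocytes, and 10.3-fold and 13.3-fold in granule cells and molecular layer interneurons, where levels were low. Among all pairs of a member and a class 26 were tested and 14 were called, all higher in NestinCre EAE (edgeR quasi-likelihood test, Benjamini-Hochberg adjusted p under 0.05 within a class). Over all genes and the 11 tested classes 1.41% of 75645 pairs were called in either direction and 1.15% as higher. By class, 6.76% of genes were called in microglia, 1.76% in granule cells, 1.67% in mature oligodendrocytes, 0.957% in oligodendrocyte progenitor cells, 0.54% in astrocytes, 0.25% in molecular layer interneurons and 0.226% in leptomeningeal cells or fibroblasts. Border-associated macrophages, the class with the highest C4b pooled over the 11 samples and in fl EAE but not in NestinCre EAE, where mature oligodendrocytes had a mean of 251.9 CPM and this class 111.5 CPM, held too few nuclei for the test (7 to 20 per EAE sample), and there C4b was not higher in NestinCre EAE, at 155, 244, 144 and 252 CPM in fl EAE 1 to 4 and 124, 0, 106 and 216 CPM in NestinCre EAE 1 to 4. In infiltrating phagocytes, not tested either, C4b was at 45.1, 233, 65.1 and 46.6 CPM in fl EAE 1 to 4, on 5 to 26 nuclei per sample. It was at 97.7, 62.7, 66.3 and 116.5 CPM in NestinCre EAE 1 to 4, with an overlap of the groups. C4b is also a gene that the study names from these samples, so its direction is not independent evidence. Of the 26 pairs, 3 passed the filter through NestinCre EAE alone, with no fl EAE sample over its cutoff (C4b in oligodendrocyte progenitor cells and molecular layer interneurons, Serping1 in mature oligodendrocytes), and these were among the calls. Of the other 23 pairs 11 were called. C4b in mature oligodendrocytes, and C4b and the C1q genes in granule cells, were over the cutoff in all 4 fl EAE samples. C4b in microglia and astrocytes, C3 in granule cells and C1qb in molecular layer interneurons were over it in 1. In mature oligodendrocytes C1qa was over it in 2 and C1qb in 3. Pairs with under 4 passed only with NestinCre EAE samples, as did some not called, so these calls are not free of that selection. Without fl EAE 1 there were 8 calls and without fl EAE 2 there were 9, and without fl EAE 3, the library that stood apart, there were 17. The share of all genes called in these fits is not given here, so the counts are not read as a result about the members.

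**Figure D3:**
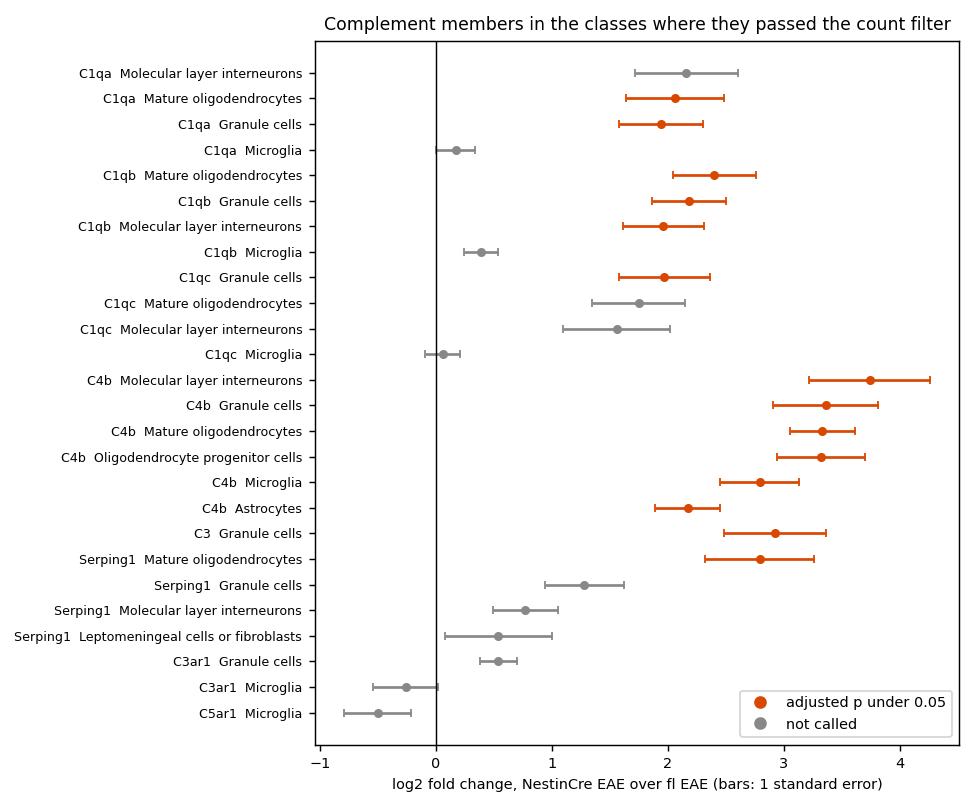
Log2 fold change of NestinCre EAE over fl EAE (horizontal axis) for each member in each class where it passed the count filter (26 pairs); points are edgeR estimates with bars of 1 standard error, and orange marks adjusted p under 0.05. All 6 C4b pairs are orange with estimates between 2.17 and 3.74, and the microglial C1q and receptor pairs lie between -0.5 and 0.39 and are grey. C4b in oligodendrocyte progenitor cells and molecular layer interneurons and Serping1 in mature oligodendrocytes passed the filter through NestinCre EAE alone.

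In mature oligodendrocytes, the myelinating cells, C4b was at 16.4, 14.3, 38.0 and 26.2 CPM in fl EAE 1 to 4 and at 313, 171, 223 and 300.5 CPM in NestinCre EAE 1 to 4. The groups did not overlap, and the lowest NestinCre EAE sample was above 4 times the highest fl EAE sample. The share of all genes with no overlap of the groups was not computed in this or any other class. The naive samples overlapped fl EAE, with 10.6 and 29.4 CPM in fl naive 2 and 3 and 11.5 CPM in NestinCre naive 2. The group means were 23.7 ± 10.8 CPM (SD, n = 4) and 251.9 ± 66.9 CPM (SD, n = 4). The log2 fold change between the EAE groups was 3.33 (SE 0.28, adjusted p 4.14e-04 by edgeR), and within run 1 alone it was 3.31 (adjusted p 9.71e-04 by edgeR). After every nucleus was thinned to 1000 UMIs, 1.13% to 3.18% of mature oligodendrocytes in the fl EAE samples and 12.6% to 22.3% in the NestinCre EAE samples held a C4b UMI. Unthinned, these shares were 2.28% to 6.31% and 18.3% to 37.8%. In granule cells the thinned shares were 0.0517% to 0.381% and 0.952% to 2.84%, at median depths of 2354 and 2093 UMIs against 2273.5 and 2067.5 in mature oligodendrocytes. The share in mature oligodendrocytes was thus above the level of granule cells in every EAE sample. The sum of 9 infiltrating-phagocyte markers in mature oligodendrocytes was 6.04 to 11.6 CPM in fl EAE and 10.2 to 119 CPM in NestinCre EAE, and its part in the result was not tested.

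The difference in C4b was present in each of the 5 clusters of mature oligodendrocytes. In the 3 largest C4b was at 16.9 CPM in fl EAE and 183 in NestinCre EAE, at 16.2 and 144, and at 33.9 and 215. A smaller cluster was made up mostly of 1 group, with 1226 of its 1337 nuclei from NestinCre EAE, 105 from fl EAE and 6 from naive mice. The interferon-inducible GTPase genes Iigp1 and Irgm2 were among its leading genes, and it held C4b at 642 CPM in NestinCre EAE and 239 CPM in the fl EAE nuclei. It accounted for 1977 of the 4425 C4b UMIs of NestinCre EAE mature oligodendrocytes. These cluster values are a description with no test.

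In oligodendrocyte progenitor cells, the dividing precursors of that lineage, C4b was at 4.94, 0, 29.2 and 8.46 CPM in fl EAE 1 to 4 and at 198, 104, 104 and 119 CPM in NestinCre EAE 1 to 4. Every NestinCre EAE sample was above every other sample, with naive values of 5.81 to 9.99 CPM. In oligodendrocyte progenitor cells edgeR gave a log2 fold change of 3.32 (SE 0.38, adjusted p 1.41e-09). No fl EAE sample was over the count cutoff of this class (44.9 CPM). The pair thus entered the test through NestinCre EAE alone, and its call is no further support. The fitted change includes a sample at 0 and depends on the prior count to that extent.

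In astrocytes C4b was at 29.0, 18.7, 74.6 and 29.8 CPM in fl EAE 1 to 4 and at 157, 237, 222 and 116 CPM in NestinCre EAE 1 to 4. The groups did not overlap, and fl EAE 3 and fl naive 2 (75.9 CPM) were the highest of the others. For astrocytes the log2 fold change by edgeR was 2.17 (SE 0.28, adjusted p 8.69e-05). Of the fl EAE samples 1 was over the count cutoff, so the pair passed only with the NestinCre EAE samples. The summed mature oligodendrocyte markers overlapped between the groups in astrocytes (134 to 382 and 175 to 321 CPM) and in oligodendrocyte progenitor cells (50.8 to 241 and 93.1 to 192 CPM). One small cluster of astrocytes held C4b at similar levels in both EAE groups, 602 CPM over 7 nuclei of fl EAE and 576 CPM over 33 nuclei of NestinCre EAE. These values pool few nuclei over samples and are a description with no test, and the other astrocyte clusters are not given here. Bergmann glia, the radial astrocytes of the cerebellar cortex, held C4b at 6.21, 3.85, 9.07 and 2.4 CPM in fl EAE 1 to 4 and at 499, 151, 223 and 50.4 CPM in NestinCre EAE 1 to 4. C4b did not pass the filter there with all samples. It was called under 7 alternatives, with no filter, in run 1 alone, without each of fl EAE 1 to 4 in turn and without NestinCre EAE 4. With 1 or 2 UMIs in each fl EAE sample, it could pass the filter through NestinCre EAE alone, so these calls are no further support.

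Microglia, which do not descend from Nestin-expressing precursors, also showed the difference. C4b was at 11.0, 0, 29.5 and 17.7 CPM in fl EAE 1 to 4 and at 132, 104, 126 and 134 CPM in NestinCre EAE 1 to 4, and the naive samples were at 0 to 10.2 CPM. Its log2 fold change by edgeR was 2.79 (SE 0.34, adjusted p 1.84e-05). Here too 1 fl EAE sample was over the count cutoff, so the pair passed only with the NestinCre EAE samples. Thinned to 1000 UMIs, 1.43% of 489 fl EAE and 11.2% of 955 NestinCre EAE microglia held a C4b UMI, at unthinned shares of 3.47% and 23.6%. The thinned share in NestinCre EAE was above the 1.72% of granule cells of that group. C4b was higher in NestinCre EAE in each of the 4 clusters of microglia, at 173 CPM against 29.7 in fl EAE, 89.4 against 6.5, 135 against 10.9 and 138 against 33.6. The first and second of these held most fl EAE microglia (224 and 168 nuclei), and the last held 251 nuclei of NestinCre EAE and 44 of fl EAE. The summed level of 9 infiltrating-phagocyte markers in microglia was 5.79 to 31.8 CPM in fl EAE, where 4 to 8 of the 9 were at 0, and 83.1 to 230 CPM in NestinCre EAE, where 0 to 2 were. Its part in the microglial result was not tested.

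C4b in granule cells was at 1.13, 0.622, 3.05 and 0.846 CPM in fl EAE 1 to 4 and at 14.6, 9.45, 11.3 and 23.6 CPM in NestinCre EAE 1 to 4 (log2 fold change 3.36, SE 0.45, adjusted p 0.0104 by edgeR). Without fl EAE 1 this call was lost. In molecular layer interneurons it was at 0.322 to 1.46 CPM in fl EAE and 3.92 to 14.5 CPM in NestinCre EAE (log2 fold change 3.74, SE 0.52, adjusted p 0.00426 by edgeR). With no fl EAE sample over the cutoff of 3.36 CPM, the interneuron pair passed through NestinCre EAE alone, and its call is no further support. The groups did not overlap in either class, and the levels stayed below those of mature oligodendrocytes in every sample. Whether this RNA came from the neurons or from other cells was not tested.

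**Figure D4:**
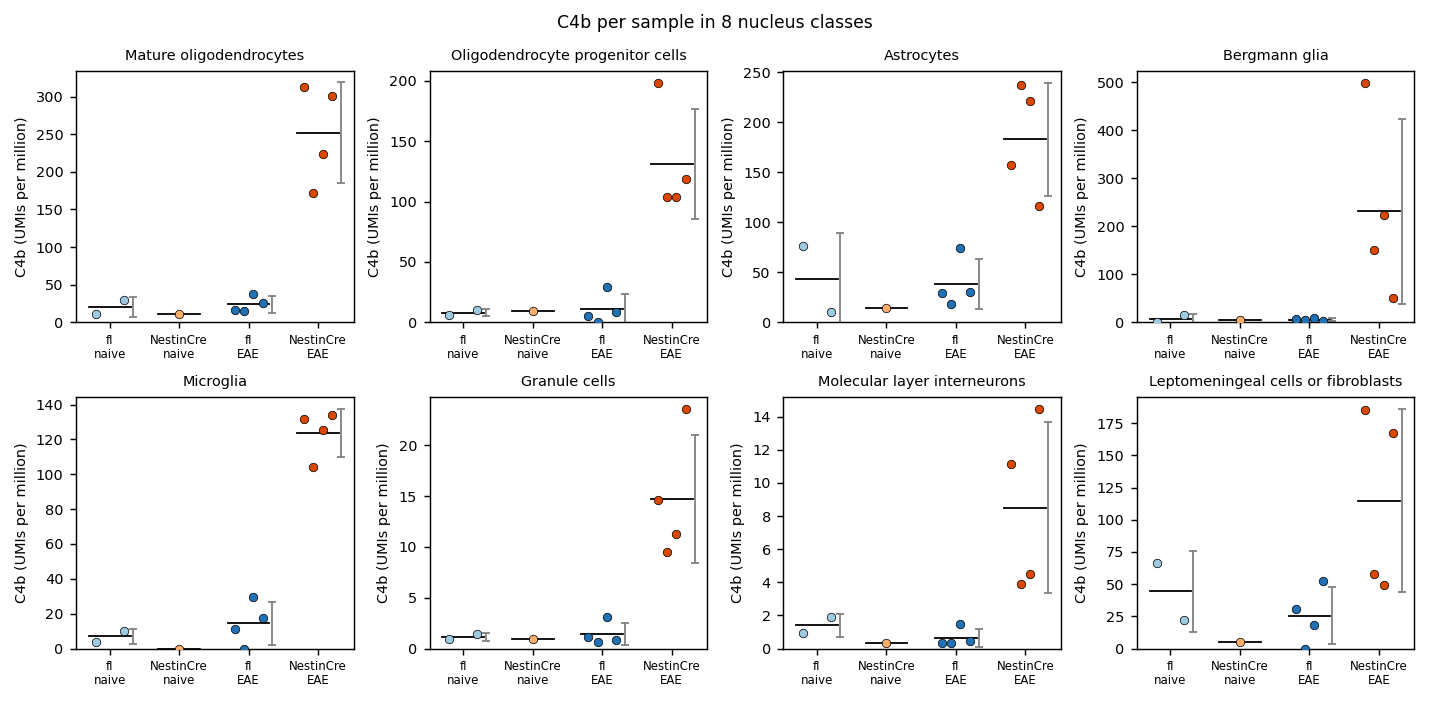
C4b in CPM (vertical axis, own scale per panel) in 8 classes for each sample; points are samples, black lines are group means and grey bars are 1 SD. In leptomeningeal cells or fibroblasts the groups cross at 49.5 and 52.6 CPM, and in the other panels all 4 NestinCre EAE samples lie above all fl EAE samples. The share of all genes with no such overlap within a class was not computed.

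The C1q genes did not follow C4b in microglia, the class that holds them at the highest level among those tested. C1qa was at 215, 266, 277 and 262 CPM in fl EAE 1 to 4 and at 238, 239, 330 and 336 CPM in NestinCre EAE 1 to 4. C1qc was at 314 to 348 CPM and 276 to 375 CPM, and the groups overlapped for both genes. C1qb was at 292, 307, 289 and 425 CPM in fl EAE and at 384, 401, 459 and 448 CPM in NestinCre EAE, where fl EAE 4 fell among the NestinCre EAE samples. The log2 fold changes were 0.17 (SE 0.17) for C1qa, 0.39 (SE 0.15) for C1qb and 0.06 (SE 0.15) for C1qc, with adjusted p of 0.677, 0.165 and 0.884 by edgeR. In the same class 6.76% of 7084 genes were called. A difference of the size seen for C4b was thus not measured for C1q in microglia, which does not show that the levels were equal.

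In granule cells, mature oligodendrocytes and molecular layer interneurons the C1q genes were low and several were called as higher in NestinCre EAE. In granule cells C1qb was at 4.44, 3.4, 8.8 and 2.72 CPM in fl EAE 1 to 4 and at 19.4, 18.6, 19.5 and 29.8 CPM in NestinCre EAE 1 to 4 (log2 fold change 2.18, SE 0.32, adjusted p 0.0126 by edgeR). C1qa (1.94, SE 0.36, adjusted p 0.0292 by edgeR) and C1qc (1.97, SE 0.39, adjusted p 0.0357 by edgeR) were called there too. In mature oligodendrocytes C1qb went from 0.576 to 7.2 CPM over the fl EAE samples to 18.5 to 28.2 CPM over the NestinCre EAE samples (log2 fold change 2.4, SE 0.36, adjusted p 0.00508 by edgeR). C1qa was called in that class (2.06, adjusted p 0.028 by edgeR) and C1qc was not (1.75, adjusted p 0.0541 by edgeR). In molecular layer interneurons C1qb alone of the 3 genes was called (1.96, adjusted p 0.0266 by edgeR), with C1qa at an adjusted p of 0.0607 and C1qc at 0.316. C1qa in molecular layer interneurons was called under 5 of the alternatives, and C1qc in mature oligodendrocytes under 7. The calls of C1qa and C1qc in granule cells, and of C1qa in mature oligodendrocytes, were lost without fl EAE 1, fl EAE 2 or NestinCre EAE 1, the granule cell calls also without NestinCre EAE 3 and with a replicate block in place of run, and the other without NestinCre EAE 4. The C1qb call in granule cells was lost without fl EAE 1 or fl EAE 2, and that in molecular layer interneurons without fl EAE 1, fl EAE 2, NestinCre EAE 1 or NestinCre EAE 4 and in run 1 alone.

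Outside microglia the C1q levels differed between classes, and the myeloid classes were high. C1qb in border-associated macrophages was at 259 to 567 CPM in fl EAE and 373 to 468 CPM in NestinCre EAE, and in infiltrating phagocytes at 46.6 to 466 CPM and 78.4 to 285 CPM, with an overlap of the groups in both and few nuclei. In NestinCre EAE the mean of C1qb was 21.8 CPM in granule cells and in mature oligodendrocytes, 24.5 in astrocytes, 15.5 in unipolar brush cells, 12.4 in molecular layer interneurons, 5.74 in oligodendrocyte progenitor cells, 4.2 in Golgi cells and 1.95 in Purkinje cells, against 423 in microglia. After thinning, 2.58% of granule cells and 2.65% of mature oligodendrocytes of NestinCre EAE held a C1qb UMI, and 0.529% and 0.556% of those of fl EAE, against 37.0% and 27.4% of microglia. Unthinned, the shares were 4.92%, 5.08%, 1.14%, 1.05%, 61.7% and 43.6% in the same order. The share in mature oligodendrocytes was near that of granule cells. Whether these UMIs were RNA of these nuclei or of other cells was not tested. The summed level of 10 microglial marker genes in granule cells overlapped between the groups, at 134 to 166 CPM in fl EAE and 150 to 179 CPM in NestinCre EAE, with none at 0. In NestinCre naive 2 these markers stood at 335 CPM and C1qb at 4.92 CPM. The sum of 9 infiltrating-phagocyte markers in granule cells was 5.96 to 12.1 CPM in fl EAE, 42.8 to 108 CPM in NestinCre EAE 1 to 3 and 9.94 CPM in NestinCre EAE 4, the sample with the highest C1qb. The part of such RNA in the C1q result was not tested.

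**Figure D5:**
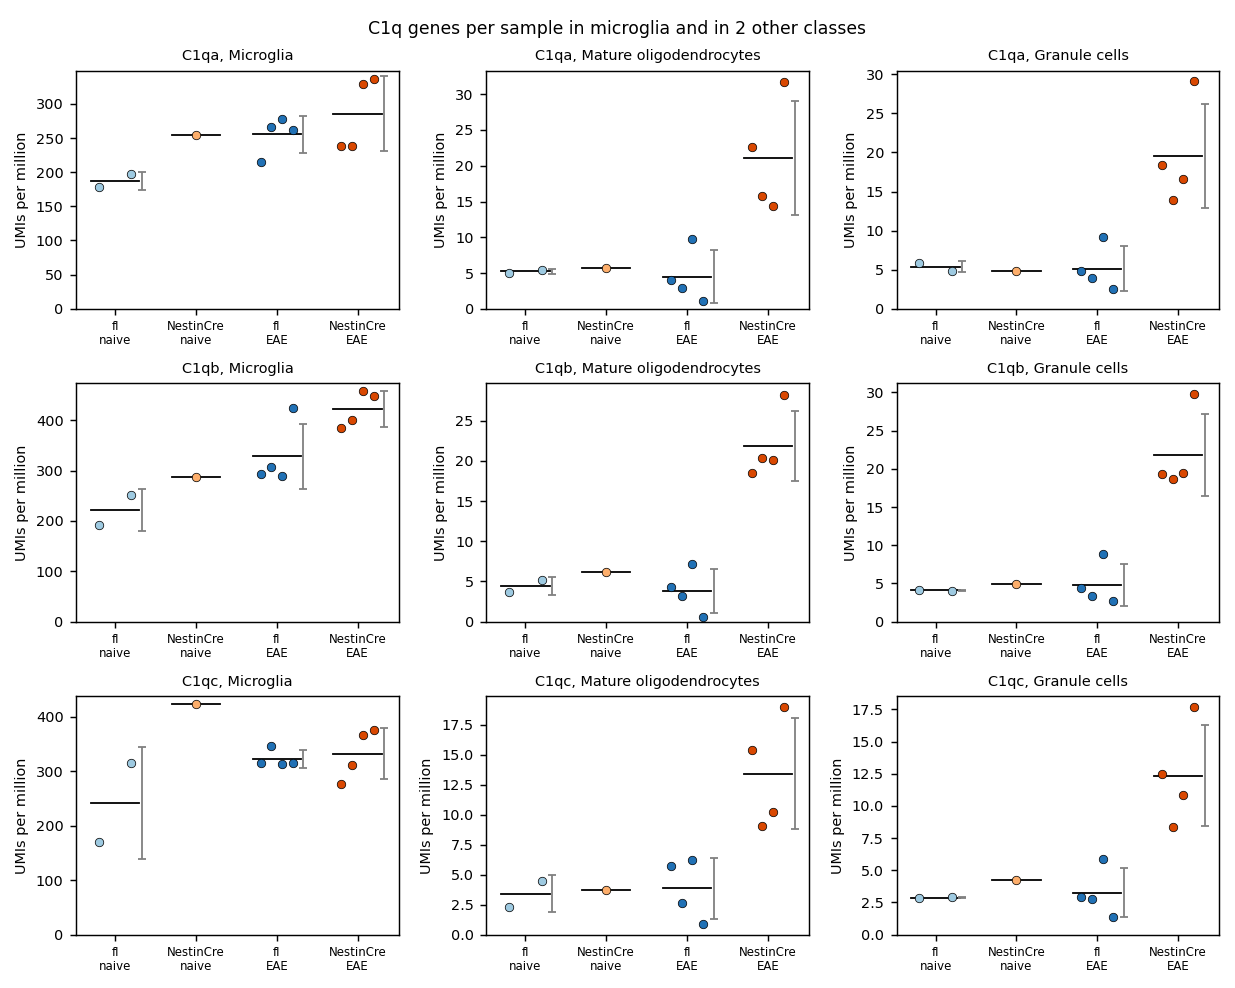
C1qa, C1qb and C1qc (rows) in microglia, mature oligodendrocytes and granule cells (columns), in CPM on an own vertical scale per panel; points are samples, black lines are group means and grey bars are 1 SD. In microglia the EAE groups overlap for each gene, and in the other 2 classes all 4 NestinCre EAE samples lie above all fl EAE samples at levels under 35 CPM. How many of all genes separate the groups in this way within a class was not computed.

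C3, the central component, was measured in few nuclei. Its highest class was infiltrating phagocytes, with 45.1, 0, 195 and 0 CPM in fl EAE 1 to 4 and 114, 141, 163 and 142 CPM in NestinCre EAE 1 to 4. The fl EAE values rest on 5 to 26 nuclei per sample and were not tested. Thinned, 11.2% of 338 such nuclei of NestinCre EAE held a C3 UMI. In granule cells C3 was at 0.362, 0.256, 1.29 and 0.137 CPM in fl EAE 1 to 4 and at 5.4, 3.3, 5.73 and 1.11 CPM in NestinCre EAE 1 to 4. NestinCre EAE 4 fell below fl EAE 3, and the difference was called (log2 fold change 2.92, SE 0.44, adjusted p 0.0133 by edgeR). The call was lost without fl EAE 1, without fl EAE 2 and with no run in the model. Thinned shares of granule cells with a C3 UMI were 0.0531% and 0.401% in fl EAE and NestinCre EAE and of mature oligodendrocytes 0.0842% and 0.303%. Among the NestinCre EAE samples the phagocyte marker sum in granule cells was lowest in the one with the lowest C3, and its part in the result was not tested. In microglia 0 of 518 nuclei of fl EAE held a C3 UMI, which allows a share of nuclei with a UMI of up to 0.579% and sets no limit on expression at a median of 1955.5 UMIs, and 16 of 985 nuclei of NestinCre EAE held one. Microglial C3 did not pass the filter and was called with no filter, as was C3 in mature oligodendrocytes and molecular layer interneurons. These calls are no further support, since the fl EAE samples held 0 C3 UMIs in microglia and 0 or 1 each in molecular layer interneurons. In mature oligodendrocytes they held 0 to 7.

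Cfb, which forms the C3-cutting enzyme of the alternative pathway, had 33 UMIs in all kept nuclei of fl EAE and 135 in those of NestinCre EAE. In infiltrating phagocytes it was at 30.3, 70.5, 40.8 and 0 CPM in NestinCre EAE 1 to 4, and at 0, 0, 65.1 and 0 CPM in fl EAE 1 to 4, where it rests on 3 UMIs. In granule cells it was at 0.0686 to 0.281 CPM in fl EAE and 0.104 to 1.42 CPM in NestinCre EAE, with an overlap of the groups. It did not pass the filter in any class in this comparison. In granule cells it did under 3 alternatives, in run 1 alone, without fl EAE 4 and without NestinCre EAE 4, and it was then called. Every fl EAE sample lay below the cutoff of 0.398 CPM that this class had with all samples, so it passed through NestinCre EAE alone and had to differ.

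Serping1, the inhibitor of the first classical proteases, was called in mature oligodendrocytes, where its level was low. It was at 1.01, 1.3, 2.68 and 0.576 CPM in fl EAE 1 to 4 and at 20.5, 6.69, 7.03 and 8.49 CPM in NestinCre EAE 1 to 4 (log2 fold change 2.79, SE 0.47, adjusted p 0.00881 by edgeR). The groups did not overlap and NestinCre EAE 1 was the highest. No fl EAE sample was over the count cutoff of this class (3.22 CPM). The pair thus passed the filter through NestinCre EAE alone, and its call is no further support. The thinned share of nuclei with a Serping1 UMI was 0.185% in fl EAE and 1.02% in NestinCre EAE, against 0.204% and 0.838% in microglia. Whether this RNA came from the oligodendrocytes was not tested. In granule cells, where the thinned shares were 1.31% and 3.05%, the levels were 11.1, 14.3, 13.4 and 14.5 CPM in fl EAE and 60.7, 21.9, 31.01 and 21.0 CPM in NestinCre EAE, all 4 above fl EAE, with naive samples at 13.8 to 22.8 CPM. This difference did not pass the threshold (log2 fold change 1.28, SE 0.34, adjusted p 0.136 by edgeR), and within run 1 alone it did (1.59, adjusted p 0.0389 by edgeR). A cluster of granule cells with 1028 of 1079 nuclei from NestinCre EAE held Serping1 at 252 CPM in that group and 110 CPM in its 47 nuclei of fl EAE, and Serping1, Nlrc5, Irgm2 and Cd274 were among its leading genes, so its level is a description.

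In the classes with the highest Serping1 no difference was called with the filter. In leptomeningeal cells or fibroblasts it was at 124, 59.5, 201 and 145 CPM in fl EAE 1 to 4 and at 317, 174, 198 and 83.6 CPM in NestinCre EAE 1 to 4, with an overlap (log2 fold change 0.54, SE 0.46, adjusted p 0.927 by edgeR). In unipolar brush cells it was at 44.4, 22.1, 20.2 and 32.8 CPM in fl EAE, at 210, 41.3, 230 and 50.1 CPM in NestinCre EAE and at 60.9 to 85.2 CPM in the naive samples, and it did not pass the filter in the genotype comparison but was called with no filter. Thinned, 13.1% of the NestinCre EAE leptomeningeal cells or fibroblasts and 9.92% of the unipolar brush cells held a Serping1 UMI, above the granule cell share.

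The receptors C3ar1 and C5ar1 were highest in phagocytic classes and were not called. C3ar1 was also tested in granule cells, where the estimate was positive. Of the granule cells 0.427% in fl EAE and 0.564% in NestinCre EAE held a C3ar1 UMI, and 0.18% and 0.216% after thinning. In microglia C3ar1 was at 60.7, 40.5, 56.8 and 56.7 CPM in fl EAE 1 to 4 and at 37.0, 33.7, 58.9 and 48.9 CPM in NestinCre EAE 1 to 4. C5ar1 was at 105, 52.1, 65.9 and 88.6 CPM and at 54.7, 36.7, 82.4 and 42.0 CPM. The groups overlapped for both. The log2 fold changes were -0.26 (SE 0.28, adjusted p 0.704 by edgeR) and -0.5 (SE 0.29, adjusted p 0.403 by edgeR), the only negative values among the 26 pairs. The naive samples held C3ar1 at 30.3 to 33.9 CPM and C5ar1 at 20.4 to 40.7 CPM in microglia, and the test of EAE against naive called neither (0.85, SE 0.59, and 0.66, SE 0.7).

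Of a wider list of 46 other complement genes, 45 were in the files, and 92 pairs of a gene and a class were tested between the EAE groups, with 6 called, 4 higher and 2 lower, against 1.41% of all pairs and 6.76% of genes in microglia. Itgam and Itgb2, the chains of complement receptor CR3 of phagocytes, were higher in granule cells at low levels (0.439 and 2.74 CPM, 0.384 and 2.28 CPM, adjusted p 0.0123 and 0.0192 by edgeR). The phagocyte marker sum given above for granule cells was higher in NestinCre EAE 1 to 3 and within the fl EAE range in NestinCre EAE 4. Its part in this result was not tested. The count cutoff in granule cells was 0.398 CPM, and the fl EAE mean of Itgb2 (0.384 CPM) lay below it. Itgb2 thus passed the filter only with NestinCre EAE samples, and its call is not free of that selection. For Itgam and the other wider-list calls the samples over the cutoff are not given here. In microglia Colec12, a scavenger receptor with a collectin domain, was higher (1.54, SE 0.45, adjusted p 0.0436 by edgeR, means of 82.7 and 219.8 CPM). The Csmd genes encode large membrane proteins with complement-control domains. Csmd3 was lower in microglia (-0.99, SE 0.21, adjusted p 0.00379 by edgeR, means of 3592 and 1797 CPM), and Csmd2 in mature oligodendrocytes (-1.17, SE 0.18, adjusted p 0.00566 by edgeR, means of 160 and 74.5 CPM). The median log2 fold change of the list was 0.04. Without fl EAE 1 there were 3 calls, without fl EAE 2 there were 2, and without NestinCre EAE 1 there were 3. For these fits too the share of all genes called is not given here.

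The comparisons with the naive state rest on few samples, and the study does not state that the fl naive libraries are separate mice. Run 1 held no naive and run 3 no EAE sample, so that with the run in the model the change is set mainly by run 2, which held a single fl naive sample. EAE against naive called 1 of 39 member pairs, C4b in mature oligodendrocytes (log2 fold change 3.7, SE 0.59, adjusted p 0.0168 by edgeR), where 0.138% of 97579 pairs over all genes were called. The call in mature oligodendrocytes was lost, with a smaller change, under a replicate block in place of run. Of the fl EAE samples fl EAE 3 alone lay above the naive range of that class, and all 4 NestinCre EAE samples did. In NestinCre EAE against NestinCre naive the same gene in the same class was the 1 call among 39 pairs (adjusted p 0.00871 by edgeR, means of 252 and 11.5 CPM), where 0.0861% of all pairs were called. That naive group is 1 sample, in a run with no EAE sample, so its spread was taken from the other groups. In fl EAE against fl naive edgeR called 0 of 39 pairs, with 9 at an unadjusted p under 0.05, DESeq2 also called 0, and 0.154% of all pairs were called. C4b in mature oligodendrocytes changed by 1.41 there (SE 0.52, adjusted p 0.276 by edgeR). For C4b in astrocytes the change between EAE and naive was -0.61 (SE 0.81) with the run in the model and 2.01 without it, so that no direction can be given. Of 123 pairs of the wider list, 1 was called in fl EAE against fl naive, Cr2 in mature oligodendrocytes (lower, -1.27, SE 0.26, adjusted p 0.0442 by edgeR), a gene outside the naming rule and chosen after its values were seen.

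Whether the effect of EAE differed between genotypes was tested as an interaction in a fit of the 11 samples. With 1 NestinCre naive sample, its spread was taken to be that of the other groups. edgeR called 0 of 39 pairs, with 9 at an unadjusted p under 0.05, and DESeq2 called 1, C4b in mature oligodendrocytes. Over all genes 0.0123% of pairs were called. For C4b in mature oligodendrocytes the interaction was 4.59 on the log2 scale (SE 0.67), just short of the threshold (adjusted p 0.0594 by edgeR). Without fl EAE 2, and without fl EAE 3, 1 pair was called. The estimate rests on a lone NestinCre naive sample.

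Over 17 classes the genes most like C4b in the pattern of mean level were Pdlim5 (Pearson's r 0.934), Abca1 (0.912), a cholesterol exporter, and Ston2 (0.905). For C3 they were Chil3, Plac8 and Oas3 (0.961, 0.957 and 0.94), of which Chil3 and Plac8 are also in the list of phagocyte markers used to name classes. For C1qa they were C1qc, Dram2 and C1qb (0.969, 0.966 and 0.94), and for Serping1 Polr3gl, Zic2 and Zic5 (0.904, 0.84 and 0.838). These are descriptions over classes that share libraries, out of 15357 genes compared.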

How the data were processed

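Nuclei of cerebellum, brainstem of 1 hemisphere and cervical cord were sorted on a DNA stain by the authors and sequenced with a droplet 3′ protocol. The deposited matrices hold raw UMI counts per gene and barcode. Per the labels and methods the authors aligned reads to GRCm39 with Cell Ranger, counting introns; the headers of the deposited files name 7.0.0 in run 1 and 6.0.2 in the other runs. Gene and UMI depth differ between libraries, and intervals and limits cover counting error only.

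The members and lists were chosen with earlier results of these data known. Nuclei with at least 200 (run 1) or 500 genes (runs 2 and 3) and under 5% mitochondrial UMIs were kept. Doublet scores came from simulated doublets; the top scores (0.8% per 1000 barcodes, scaled by the 0.52 share of doublets of unlike nuclei) and clusters with over 40% of them were left out. 40 principal components of 3000 variable genes were integrated by a Harmony implementation and clustered (leidenalg 0.10.2, resolutions 2 and 6). Clusters were named from at least 3 detected markers.

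UMIs were summed per sample and class. edgeR 4.0.16 (R 4.3.3) was run on each class that had 10 or more nuclei per sample (TMM, filterByExpr by group, quasi-likelihood, run in the model), with Benjamini-Hochberg adjustment within a class and a threshold of 0.05. Replicates of the EAE groups are separate mice per the study. The study does not state this for the fl naive libraries, and calls the naive library sequenced beside EAE samples an internal control for batch effects. DESeq2 1.42.0 was an alternative. The self-test on simulated counts recovered 96% of 100 genes changed by 2 on the log2 scale among 11991 in mature oligodendrocytes, NestinCre EAE against fl EAE, and 85% of those changed by 1; at a change of 1 it recovered 62% of 100 among 7084 genes in microglia and 73% of 100 among 15849 in granule cells. Replicate numbers did not pair the samples. Named genes were the 9 members, up to 5 called wider-list genes per class, the 3 most similar genes for 4 members, marker genes and Nes and Il12rb2. Other settings tried were RLE factors, no filter, no run, doublets kept, nuclei under 6000 UMIs, a replicate block, run 1 alone and leaving out each replicate. Another clustering seed was added after seeing the data. Of the wider-list calls, 1 is counted but not reported here by gene.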

Additional observations from a re-analysis of the deposited data

Results flagged for a closer look

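In 10 of 70 groups of 4 samples 1 sample lay far from the other samples by Dixon's test, which flags about 1 in 20 groups by chance. In fl EAE 3 the whole-library level was high for C4b (7.7 CPM against 1.88 to 2.6 in the other fl EAE samples), C1qb (9.11 CPM against 4.07 to 4.81) and Cfb (0.342 CPM against 0.0635 to 0.0983), and C4b in molecular layer interneurons was at 1.46 CPM (0.322 to 0.43). In fl EAE 4 C3ar1 in granule cells was low at 1.21 CPM (1.93 to 2.04) and C1qb in microglia high at 425 CPM (289 to 307). In fl EAE 2 C1qc in microglia was at 348 CPM (314 to 315), a gap that is small beside its level. In NestinCre EAE 4 C1qb in granule cells was high at 29.8 CPM (18.6 to 19.5). In NestinCre EAE 1 Serping1 in mature oligodendrocytes was at 20.5 CPM (6.69 to 8.49) and C4b in oligodendrocyte progenitor cells at 198 CPM (104 to 119).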

How the results depend on the processing

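Of the 14 calls between the EAE groups, those of C4b in mature oligodendrocytes, microglia, astrocytes and oligodendrocyte progenitor cells and of C1qb and Serping1 in mature oligodendrocytes held under all 17 alternatives, and C4b in molecular layer interneurons under the 16 that gave a value. For C4b in oligodendrocyte progenitor cells and molecular layer interneurons and Serping1 in mature oligodendrocytes, this is no further support, since no fl EAE sample was over the filter cutoff. C4b in microglia and astrocytes and C1qb in mature oligodendrocytes also needed the NestinCre EAE samples to pass it. With no filter on low counts the calls of members rose from 14 to 25 and those of the wider list from 6 to 13. Calls in EAE against naive rose from 1 to 2. The share of all genes called is not given here for this or the other alternatives, so these counts are not read as a result about the members. With no run in the model there were 4 calls in EAE against naive and 4 in NestinCre EAE against NestinCre naive. The interaction had 1 call with DESeq2 and 1 with nuclei under 6000 UMIs. Leaving out 1 replicate at a time gave 8 to 17 calls of members, 2 to 7 of the wider list and 0 to 1 of the interaction. Another clustering seed, added after seeing the data, left 14 and 6 calls between the EAE groups. Thinning lowered the mean share of mature oligodendrocytes with a C4b UMI, which without it was 4.08% against 2.09% in fl EAE and 29.5% against 18.3% in NestinCre EAE. Same-numbered samples of the EAE groups did not all deviate together (correlations of -0.24 to 0.373 over 4 classes, positive in every class for replicate 2), so the replicate number was not taken to pair them. With a replicate block in place of run there were 12 calls of members and 4 of the wider list between the EAE groups, 2 in EAE against naive and 4 in NestinCre EAE against NestinCre naive, and C4b in mature oligodendrocytes between EAE and naive was 2.01 (adjusted p 0.0521 by edgeR).

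Directions turned for values not called. C1qc in microglia between the EAE groups was -0.01 in run 1 alone and -0.02 to 0.12 with 1 replicate left out. Between EAE and naive, leaving out 1 replicate gave -0.45 to 1.57 for C1qc and -0.36 to 1.49 for C1qa in granule cells, -0.1 to 0.19 for C3 in granule cells, -1.75 to 1.74 for C1qb and -1.34 to 1.74 for C1qa in mature oligodendrocytes, and -0.59 to 1.21 for C1qb in molecular layer interneurons. C4b in astrocytes between EAE and naive was 2.01 with no run in the model and 2.27 with the replicate block. The cause of these shifts was not tested. EAE against naive, fl EAE against fl naive and NestinCre EAE against NestinCre naive could not be fitted without fl naive 2, which alone links naive and EAE samples within a run. Pairs not tested with all samples and the filter were called under some alternatives: C4b in Bergmann glia under 7, Cfb in granule cells under 3, and C3 in mature oligodendrocytes, microglia and molecular layer interneurons, C1qb in astrocytes and Serping1 in astrocytes and unipolar brush cells under 1 (no filter).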
